A study of Mus musculus with 6 samples.

Results

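Dyrk1a, Rcan1 and 8 genes of the calcineurin-NFAT pathway were followed in primitive macrophages grown from Ts1Cje and wild-type mouse embryonic stem cells. The members were taken from the deposited tables by gene symbol, and all 10 were found among 55487 genes. They are the kinase gene Dyrk1a, the inhibitor genes Rcan1, Rcan2 and Rcan3, the transcription factor genes Nfatc1, Nfatc2 and Nfatc3, and the phosphatase subunit genes Ppp3ca, Ppp3cb and Ppp3r1. Of these, 9 had enough counts to be tested between the genotypes, and Rcan2 did not.

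The tested cells came from Ts1Cje stem cells, and the control cells came from wild-type stem cells. Each genotype had 3 libraries, labelled lots 1 to 3 and called replicates 1 to 3 here. The Ts1Cje mouse models Down syndrome: a distal piece of chromosome 16 is present as an extra copy joined to the end of chromosome 12, so that the genes on it have 3 copies. All 6 cultures received the same factors over 12 days, namely M-CSF, IL-3 and SCF, which act on blood cells, and VEGF, FGF2, BMP-4 and activin A, which act on earlier stages, to turn the stem cells into primitive macrophages. Whether a lot is a stem cell line of its own or a repeat culture is not said in the labels, so p-values speak of the spread among these 6 libraries alone, part or all of which may be technical. A culture is also not the yolk sac in which such macrophages arise.

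Calcineurin is a phosphatase switched on by calcium and calmodulin. It removes phosphates from NFAT proteins, which then enter the nucleus and turn on genes. DYRK1A works against it by phosphorylating NFAT, which primes NFAT for export from the nucleus, and RCAN1 binds calcineurin and inhibits it. Dyrk1a and Rcan1 lie in the extra segment and the other 8 genes do not, and the comparison asks how the RNA of the members stood when Dyrk1a and Rcan1, with the rest of the segment, had an extra copy.

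Rcan1 has a pair of well-known transcription starts, and the stretches before them are shown because the deposited counts add both up. The inner start gives a shorter protein and is known as a target of NFAT, so that the calcineurin inhibitor is itself a calcineurin-NFAT response gene. RefSeq places the starts 66.1 kb apart (GRCm38.p6, the build mm10 is drawn from). Sequences read 5′ to 3′ on the strand of the gene, and capitals mark GGAAA, the core that NFAT proteins recognise, or its reverse complement TTTCC. The first Rcan1 stretch is chr16:92466170-92466419 and the second is chr16:92400079-92400328, both on the minus strand. Each holds the 250 bases before its start.
Rcan1 outer start: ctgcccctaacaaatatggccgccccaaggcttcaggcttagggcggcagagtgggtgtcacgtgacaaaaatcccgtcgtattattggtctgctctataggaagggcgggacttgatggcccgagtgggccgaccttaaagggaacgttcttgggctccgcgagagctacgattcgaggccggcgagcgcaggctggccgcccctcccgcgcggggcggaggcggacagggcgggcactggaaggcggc
Rcan1 inner start: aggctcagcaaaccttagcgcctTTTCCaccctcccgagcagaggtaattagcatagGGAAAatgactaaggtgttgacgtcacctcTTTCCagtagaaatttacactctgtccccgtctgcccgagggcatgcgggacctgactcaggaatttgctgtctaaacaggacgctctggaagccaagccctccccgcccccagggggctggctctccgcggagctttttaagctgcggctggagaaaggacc
The outer stretch held 0 cores and the inner stretch held 3, at 227, 193 and 163 bases before the start. Over all 32851 RefSeq promoter windows of 250 bases, 55.6% held at least 1 core on either strand and 6.39% held 3 or more. The matches are letters in a window and not measured binding, and RNA from each start was not measured apart in these libraries.

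The stretches of Nfatc2 and Dyrk1a are shown for the same motif. Both genes had higher values with Rcan1 in Ts1Cje libraries, as had Nfatc3, whose stretches are not shown. Nfatc2 encodes an NFAT protein of immune cells, and its RefSeq starts follow chr2:168601658-168601907 and chr2:168590366-168590615 on the minus strand. For Dyrk1a the part of the window before its second RefSeq start that no annotated exon covers is shown, 207 bases at chr16:94570657-94570863 on the plus strand.
Nfatc2 outer start: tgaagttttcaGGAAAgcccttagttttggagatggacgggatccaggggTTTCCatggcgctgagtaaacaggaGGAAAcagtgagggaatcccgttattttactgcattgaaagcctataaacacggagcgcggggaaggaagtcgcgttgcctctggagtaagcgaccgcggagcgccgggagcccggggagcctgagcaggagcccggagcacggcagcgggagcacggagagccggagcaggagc
Nfatc2 inner start: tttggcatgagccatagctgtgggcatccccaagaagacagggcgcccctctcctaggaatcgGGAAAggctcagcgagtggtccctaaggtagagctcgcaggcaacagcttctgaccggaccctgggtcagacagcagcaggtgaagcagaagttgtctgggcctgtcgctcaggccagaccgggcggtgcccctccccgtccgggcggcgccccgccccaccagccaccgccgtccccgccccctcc
Dyrk1a second start: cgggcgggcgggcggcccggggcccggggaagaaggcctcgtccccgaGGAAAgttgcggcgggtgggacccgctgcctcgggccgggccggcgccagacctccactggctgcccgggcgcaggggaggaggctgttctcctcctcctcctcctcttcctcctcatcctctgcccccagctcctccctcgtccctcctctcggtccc
The outer Nfatc2 stretch held 3 cores, the inner held 1 and the Dyrk1a stretch held 1. Before the first Dyrk1a start the 54 bases outside annotated exons held 0 cores, and the stretch before the third Dyrk1a start held 2. RefSeq windows were found for 8 of the 10 members, 15 in all, and 9 of them held a core outside annotated exons. Of all RefSeq windows, read with exons included, 55.6% held at least 1 core. Ppp3cb, whose level overlapped between the genotypes, also had 3 cores. Nfatc3 had 1 core before its first start and 0 before its second. Rcan2, which was not tested, had 2 cores before its first start and none before its later starts.

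The libraries had the RNA of macrophages. The 10 macrophage markers, among them Csf1r and Spi1, summed to 8990 to 17762 CPM (counts scaled to an equal library total and by TMM factors) in Ts1Cje and 7733 to 17652 CPM in wild-type libraries. Of these sums Lyz2 alone held 3249 to 11565 CPM in Ts1Cje and 2298 to 10372 CPM in wild-type libraries. Csf1r had 1088 to 1136 CPM in Ts1Cje and 1066 to 2435 CPM in wild-type libraries. None of the 10 markers had groups apart. Total counts were 26146044 to 32658148 in Ts1Cje and 25484294 to 26372632 in wild-type libraries. Summed neutrophil markers were 0.112 to 0.651 CPM in Ts1Cje and 0.150 to 0.336 CPM in wild-type libraries, and pluripotency markers 0.447 to 0.580 CPM in Ts1Cje and 0 in wild-type libraries. Sums for blood progenitor, mast and megakaryocyte, endothelial, mesenchymal, muscle, neural and epithelial markers were at most 145 CPM in Ts1Cje and 186 CPM in wild-type libraries, each with overlapping ranges. Ly6g, Esrrb, Emcn, Myog, Sox2, Olig2, Fcer1a, Mcpt4 and Tpsb2 were at 0 in all libraries. Wild-type replicate 1 stood apart: its 6 mitosis markers summed to 89.9 CPM, against 359 to 658 CPM in Ts1Cje libraries and 525 and 583 CPM in wild-type replicates 2 and 3. In wild-type replicate 1 the muscle markers also summed to 71.6 CPM and the epithelial markers to 35.8 CPM. The other libraries had at most 14.0 CPM for muscle and 16.6 CPM for epithelial markers. Without wild-type replicate 1 the log2 fold change (Ts1Cje over wild-type) was 0.69 for Dyrk1a, 0.92 for Rcan1, 0.45 for Nfatc2 and 0.36 for Nfatc3.

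Dyrk1a and Rcan1, the members in the extra segment, were higher in every Ts1Cje library than in every wild-type library. So were Nfatc2 and Nfatc3, which are present in the usual copy number. Ppp3ca, Ppp3cb, Ppp3r1, Nfatc1 and Rcan3 overlapped between the genotypes. Of the 9 tested members 4 were thus apart upward, against 6.38% of all 13821 tested genes, and 0 were apart downward, against 5.72%. Of the 7 members tested outside the segment 2 were apart upward, while in the segment 31 of the 56 tested genes were. The upward count was also 4 of 9 on deposited TPM and on CPM by library total alone. It was 4 without wild-type replicate 1 too, but leaving out a library narrows the range of a group, so this is no check. By sign, 7 of 9 log2 fold changes were above 0, against 49.2% of tested genes. Outside the segment 5 of 7 members were above 0, and in the segment 47 of 56 tested genes were. The quasi-likelihood test of edgeR, adjusted by Benjamini-Hochberg over all tested genes, gave 0 members under 0.05, and DESeq2 gave 0 as well; by edgeR 0.00724% of all tested genes passed, which is 1 gene, higher in Ts1Cje, and 0% passed as lower. At an unadjusted p under 0.05 edgeR had 4 members higher, against 2.99% of tested genes, and 0 lower, against 2.8%. Of these members 2 lie outside the segment. Over the 17 alternatives of the closing section the number of members under 0.05 was 2 to 4. It was 3 in most of them and 2 without Ts1Cje replicate 1.

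**Figure D1:**
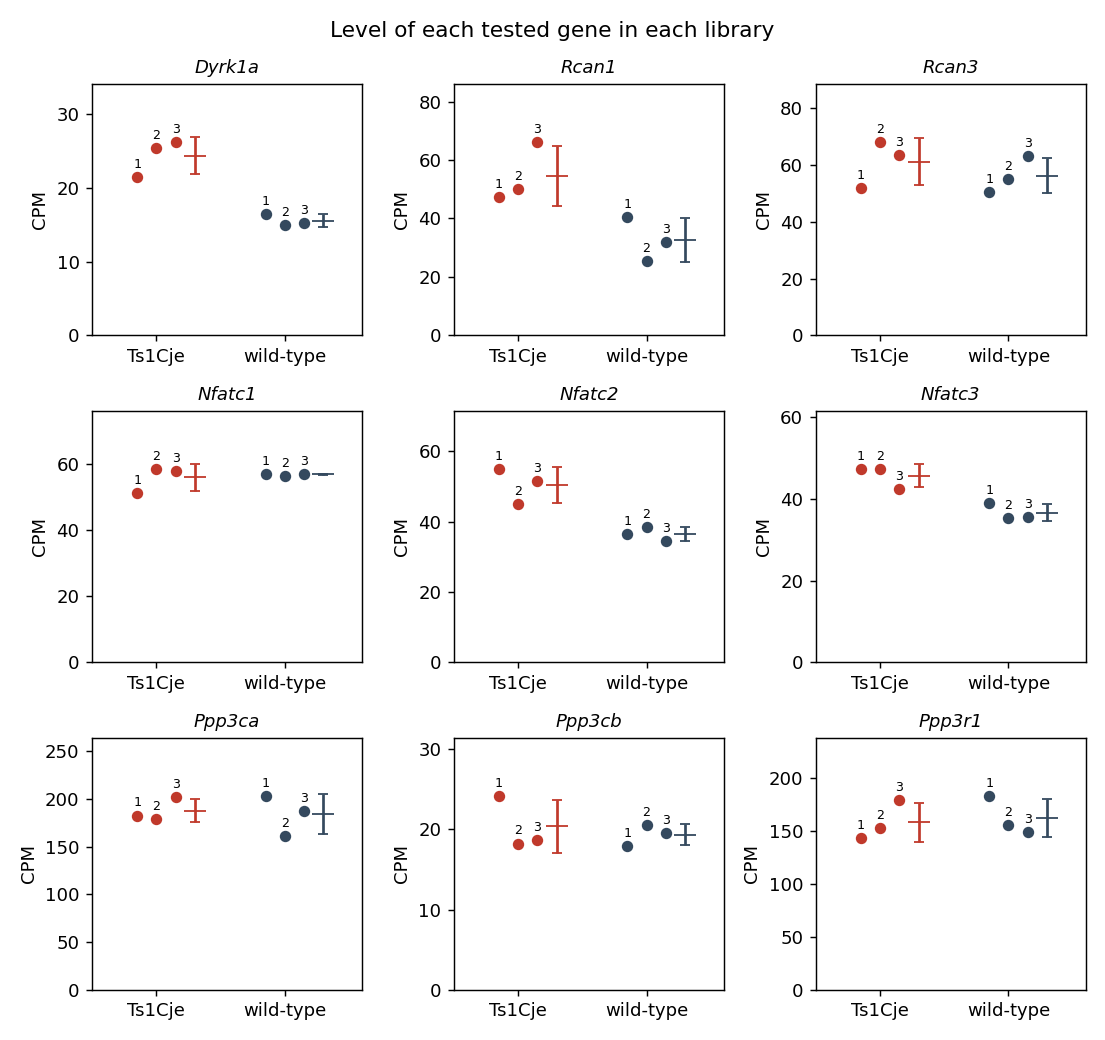
CPM of the 9 tested genes in each library (points, numbered by replicate; y axes start at 0), with the mean and SD of each genotype beside them (n = 3). Ts1Cje is in red at the left and wild-type in dark blue at the right; the groups are apart for Dyrk1a, Rcan1, Nfatc2 and Nfatc3 and overlap for the other 5 genes.

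Dyrk1a encodes a kinase that also phosphorylates cyclin D proteins, tau and the DREAM complex of cell cycle exit. The gene lies at chr16:94570010-94695517 in mm10 on the plus strand, with 12 exons in its longest annotated transcript. Its level was 21.5, 25.4 and 26.3 CPM in Ts1Cje replicates 1 to 3, against 16.5, 14.9 and 15.2 CPM in wild-type replicates 1 to 3. The lowest Ts1Cje library was above the highest wild-type library. The mean was 24.4 ± 2.52 CPM in Ts1Cje and 15.5 ± 0.853 CPM in wild-type libraries (SD, n = 3). This gave a log2 fold change of 0.65 ± 0.17 (SE), a fold of 1.57 with a 95% interval of 1.19 to 2.07, and the interval includes the 1.5-fold that 3 copies would give in proportion. Its unadjusted p was 0.00573 and its adjusted p 0.792 (edgeR quasi-likelihood, Benjamini-Hochberg).

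Rcan1 lies nearer the centromere, at chr16:92391953-92470867 on the minus strand, with 7 annotated transcripts. Its level was 47.2, 50.05 and 66.3 CPM in Ts1Cje replicates 1 to 3, against 40.6, 25.4 and 32.0 CPM in wild-type replicates 1 to 3. The groups did not overlap, and wild-type replicate 1 came nearest to the Ts1Cje libraries. Its mean was 54.5 ± 10.3 CPM in Ts1Cje and 32.7 ± 7.64 CPM in wild-type libraries (SD, n = 3). This was a difference on the log2 scale of 0.74 ± 0.22 (SE), a fold of 1.67 with a 95% interval of 1.17 to 2.39. The unadjusted p was 0.0111 and the adjusted p 0.792 by the same test. Without wild-type replicate 1 the log2 fold change was 0.92, and without Ts1Cje replicate 3, the highest library, it was 0.57. The spread of Rcan1 inside each genotype was wider than that of Dyrk1a. In bulk RNA, fewer cells of a type and less RNA per cell cannot be told apart, which holds for all levels given here.

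Among the 56 tested genes of the segment, taken by coordinate from just after Sod1 to Zbtb21, Rcan1 ranked 19 and Dyrk1a ranked 25 by log2 fold change. The segment had a median log2 fold change of 0.62 with quartiles of 0.38 and 0.82, against a median of -0.01 over all tested genes. Both genes thus stood between the quartiles of their segment.

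**Figure D2:**
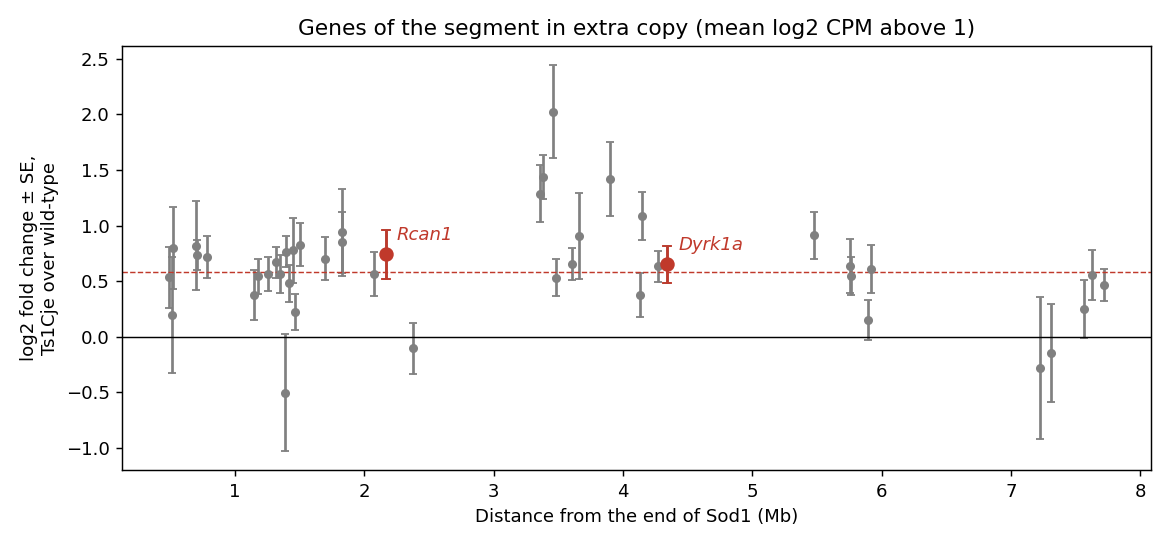
Log2 fold change of Ts1Cje over wild-type (y axis; points, bars are ± SE) against distance from the end of Sod1 in Mb (x axis) for the 44 tested genes of the segment with a mean log2 CPM above 1; Rcan1 and Dyrk1a are in red. The dashed line is the log2 value of 1.5-fold, 0.58, and both genes lie near it.

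Next to Dyrk1a, 4 of the 6 nearest tested genes were higher in every Ts1Cje library than in every wild-type library, Pigp and Gm15971 excepted. The same held for 31 of the 56 tested genes of the segment and for 6.38% of all tested genes. On the centromere side Vps26c, a subunit of an endosome recycling complex, had a log2 fold change of 0.63 ± 0.14 (SE). Ttc3, a ubiquitin ligase, was at 1.09 ± 0.22 and Pigp, an enzyme of GPI anchor synthesis, at 0.38 ± 0.20. On the other side the antisense gene Gm15971, inside the span of Dyrk1a, averaged 0.482 CPM in Ts1Cje and 0.305 CPM in wild-type libraries, while no exon of another gene overlaps those of Dyrk1a. Beyond it Ets2, a transcription factor gene, had 0.91 ± 0.21 and Psmg1, a proteasome assembly factor, 0.64 ± 0.25. Ets2 and Psmg1 lie as far as 1007 and 1284 kb from Dyrk1a.

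Around Rcan1 the neighbours were less alike. On the centromere side Smim11 had a log2 fold change of 0.57 ± 0.20 (SE). Mrps6, a mitochondrial ribosome protein, had 0.85 ± 0.27 and Slc5a3, an inositol transporter, 0.94 ± 0.39. These 3 were apart between the genotypes. On the other side Clic6 was barely detected, at 0.853 ± 0.714 CPM in Ts1Cje and 0.440 ± 0.607 CPM in wild-type libraries (SD, n = 3). Runx1, a transcription factor of blood formation 131 kb from Rcan1, had -0.11 ± 0.23 and overlapped. Setd4, a methyltransferase 1113 kb from Rcan1, had 1.29 ± 0.26 with groups apart. Of these 6 neighbours 4 were apart upward, beside 31 of the 56 tested genes of the segment. None of the 12 neighbours had an adjusted p under 0.05 (edgeR, Benjamini-Hochberg).

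Rcan3, a paralog of Rcan1 that also binds calcineurin, lies on chromosome 4. It had 52.0, 68.2 and 63.4 CPM in Ts1Cje replicates 1 to 3, against 50.7, 55.1 and 63.1 CPM in wild-type replicates 1 to 3. The groups overlapped, with a log2 fold change of 0.12 ± 0.16 (SE) and a 95% interval of -0.25 to 0.50. Rcan2, the third member of the family and on chromosome 17, had 11 counts in Ts1Cje replicate 3 and 14 in wild-type replicate 1. The other 4 libraries had 0 counts of it, and it was left untested.

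On the TPM scale, which divides by gene length and so allows genes to be compared, the RCAN genes together stood higher in Ts1Cje. Rcan1 took 60.1, 54.9 and 63.2% of RCAN TPM in Ts1Cje replicates 1 to 3, against 56.7, 43.3 and 45.6% in wild-type replicates 1 to 3. Ts1Cje replicate 2 lay below wild-type replicate 1, so these shares overlapped. The summed TPM of Rcan1, Rcan2 and Rcan3 was 78.9, 91.2 and 94.2 in Ts1Cje libraries, against 67.8, 57.1 and 69.3 in wild-type libraries. All Ts1Cje sums were above all wild-type sums, and their means were 88.1 ± 8.14 TPM in Ts1Cje and 64.7 ± 6.67 TPM in wild-type libraries (SD, n = 3).

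**Figure D3:**
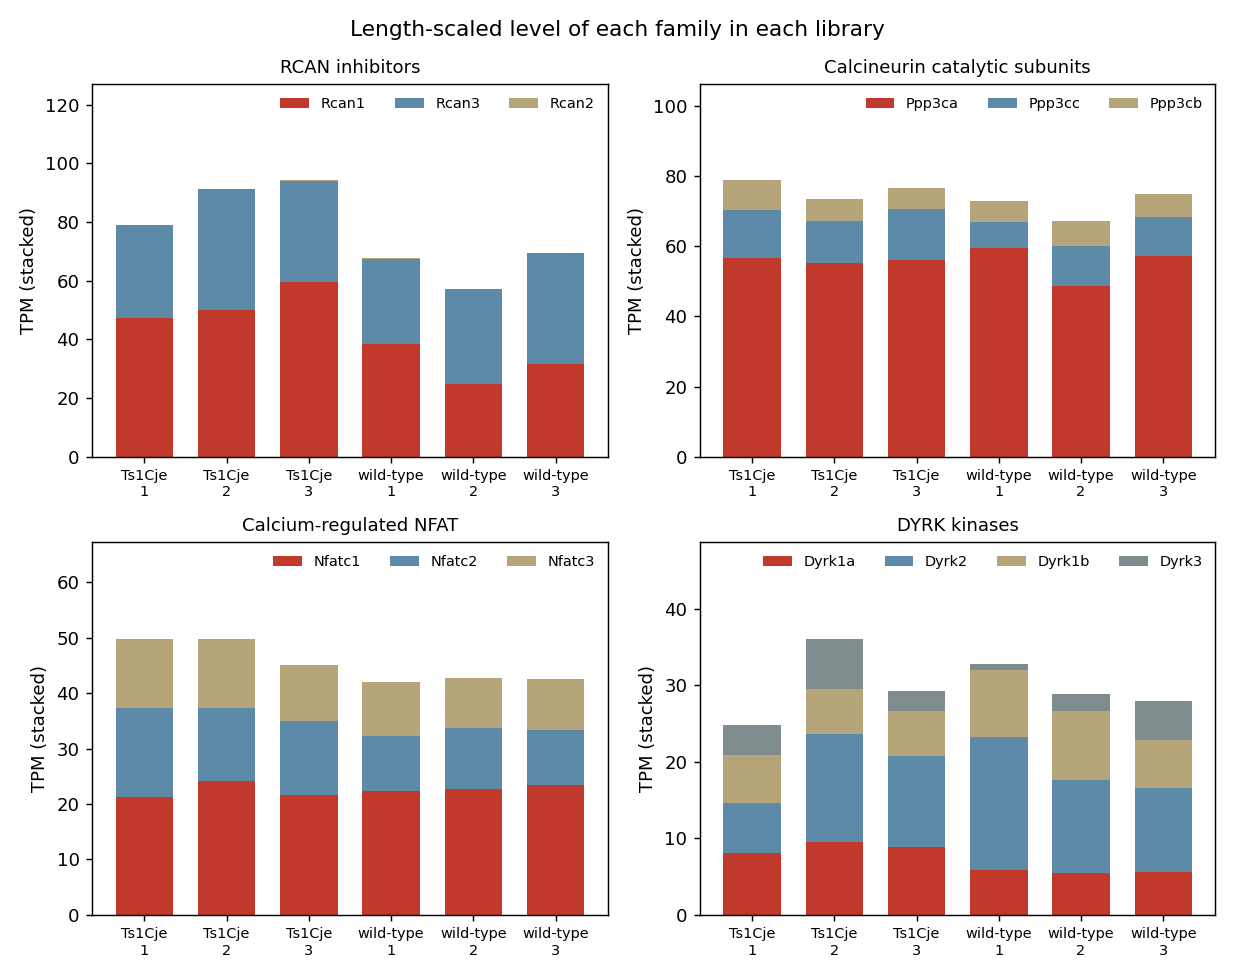
Stacked TPM (y axes, from 0) of the RCAN, calcineurin catalytic, NFAT and DYRK genes in each library, the 3 Ts1Cje libraries at the left and the 3 wild-type libraries at the right of each panel. The RCAN stacks are higher in Ts1Cje, at 78.9 to 94.2 TPM, than in wild-type, at 57.1 to 69.3 TPM, while the catalytic stacks lie between 67.2 and 78.9 TPM in all libraries.

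The 3 calcineurin genes among the members gave close values in both genotypes. Ppp3ca encodes the alpha form of the catalytic subunit. It had 183, 179 and 202 CPM in Ts1Cje replicates 1 to 3, against 203, 161 and 187 CPM in wild-type replicates 1 to 3. The groups overlapped, with a log2 fold change of 0.03 ± 0.14 (SE) and a 95% interval of -0.29 to 0.36. Ppp3cb, the beta form, had 24.2, 18.2 and 18.7 CPM in Ts1Cje libraries, against 17.9, 20.5 and 19.6 CPM in wild-type libraries. Its log2 fold change was 0.08 ± 0.19 with an interval of -0.36 to 0.51. Ppp3r1, the regulatory subunit that binds calcium, had 143, 152 and 179 CPM in Ts1Cje libraries, against 183, 155 and 148 CPM in wild-type libraries. Its log2 fold change was -0.04 ± 0.15 with an interval of -0.38 to 0.31. These intervals leave room for changes of up to about 1.42-fold for Ppp3cb and 1.28-fold for Ppp3ca upward, so that a small change was not detectable with 3 libraries a group. The signs of these 3 genes and of Nfatc1 turned when a library was left out.

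Ppp3ca supplied most of the catalytic RNA. It held 73.4 ± 1.76% of the TPM of Ppp3ca, Ppp3cb and Ppp3cc in Ts1Cje and 76.7 ± 4.60% in wild-type libraries (SD, n = 3). Ppp3cc, the gamma form, held 17.6 ± 1.64% in Ts1Cje and 14.1 ± 3.48% in wild-type, ahead of Ppp3cb at 9.04 ± 1.57% in Ts1Cje and 9.20 ± 1.15% in wild-type. Ppp3r1 was the most abundant member, with 1.74, 1.98 and 2.00 TPM per catalytic TPM in Ts1Cje replicates 1 to 3, against 2.27, 2.15 and 1.87 in wild-type replicates 1 to 3, which overlapped. Ppp3r1 shares 462 bases of exon with Wdr92 on the same strand, and Rcan3 shares 44 with Mir700, so reads in those bases are not assigned with certainty.

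Rcan1 RNA stood higher against the RNA of the phosphatase it inhibits. It had 0.600, 0.680 and 0.776 TPM per catalytic TPM in Ts1Cje replicates 1 to 3, against 0.527, 0.368 and 0.421 in wild-type replicates 1 to 3. The lowest Ts1Cje ratio lay above the highest wild-type ratio, and the means were 0.686 ± 0.0882 in Ts1Cje and 0.439 ± 0.0811 in wild-type (SD, n = 3), a fold of 1.56. Leaving out each library gave folds of 1.45 to 1.74. The ratio is of RNA and does not give the ratio of the proteins.

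Among NFAT genes, Nfatc1 was the most abundant and differed least. Nfatc1, known as the master regulator of osteoclast formation, had 51.4, 58.6 and 58.0 CPM in Ts1Cje replicates 1 to 3, against 56.9, 56.6 and 57.1 CPM in wild-type replicates 1 to 3. Wild-type libraries lay within the Ts1Cje range, and the log2 fold change was -0.02 ± 0.13 (SE) with a 95% interval of -0.32 to 0.28.

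Nfatc2 lies at chr2:168476410-168601657 and its protein is a main NFAT form of lymphocytes. It had 55.0, 44.9 and 51.5 CPM in Ts1Cje replicates 1 to 3, against 36.5, 38.6 and 34.6 CPM in wild-type replicates 1 to 3. Every Ts1Cje library was above every wild-type library. The log2 fold change was 0.46 ± 0.15 (SE), a fold of 1.38 with a 95% interval of 1.09 to 1.74. The unadjusted p was 0.0137 and the adjusted p 0.792 (edgeR quasi-likelihood, Benjamini-Hochberg). Among all tested genes 195 had a smaller p.

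Nfatc3, which acts with the other NFAT genes in heart, vessels and T cells, had 47.3, 47.3 and 42.5 CPM in Ts1Cje replicates 1 to 3, against 39.0, 35.3 and 35.5 CPM in wild-type replicates 1 to 3. The groups were apart here as well, by a smaller margin. Its log2 fold change was 0.32 ± 0.14 (SE), a fold of 1.25 whose 95% interval on the log2 scale was 0.0008 to 0.64. The unadjusted p was 0.0495, with 0.0472 to 0.144 over the alternatives, and the adjusted p 0.792 (edgeR, Benjamini-Hochberg). Nfatc3 shares 219 bases of exon with Esrp2 on the opposite strand, and the strand setting of the counting is not stated in the labels, so reads there cannot be told apart.

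The NFAT genes together had 49.9, 49.8 and 45.1 TPM in Ts1Cje replicates 1 to 3, against 42.1, 42.7 and 42.6 TPM in wild-type replicates 1 to 3. Nfatc1 made up 42.7, 48.5 and 47.8% of that sum in Ts1Cje libraries, against 52.9, 53.2 and 54.8% in wild-type libraries. All Ts1Cje shares of Nfatc1 were lower than all wild-type shares. Nfatc2 made up 29.5 ± 3.02% in Ts1Cje and 24.4 ± 1.15% in wild-type, with groups apart at 26.3% and 25.7%, and Nfatc3 24.1 ± 1.56% in Ts1Cje and 22.0 ± 0.982% in wild-type (SD, n = 3). Nfatc4 had 9 counts in all 6 libraries together.

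**Figure D4:**
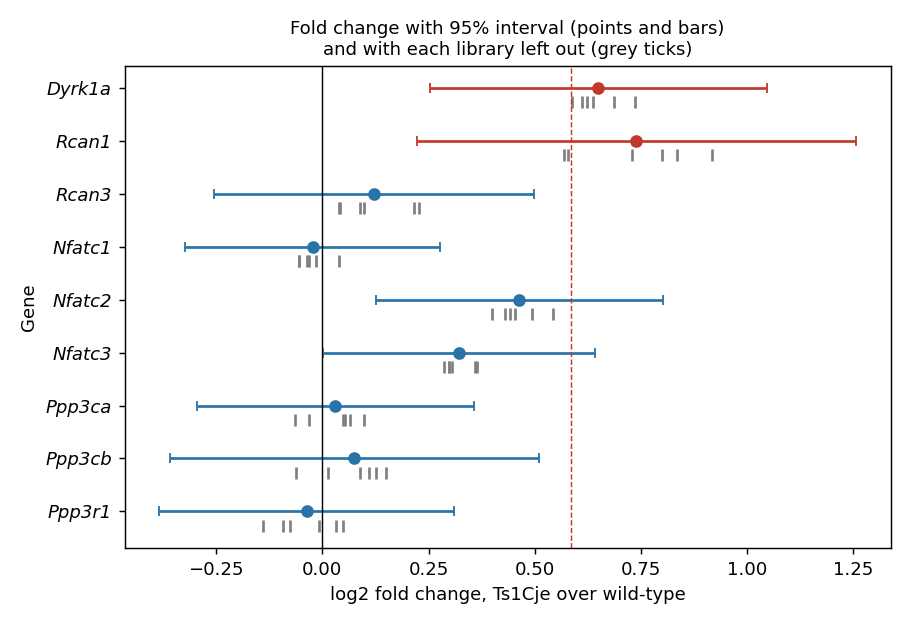
Log2 fold change of Ts1Cje over wild-type (x axis) for the 9 tested genes, with 95% intervals of the edgeR fit (bars) and the value with each library left out (grey ticks); genes of the extra segment are in red. The dashed line is 0.58, the log2 value of 1.5-fold. Intervals of Dyrk1a, Rcan1, Nfatc2 and, barely, Nfatc3 lie above 0, before any adjustment for the number of genes.

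Ordered by mean TPM over all 6 libraries, Ppp3r1 was highest, with 145 ± 8.03 TPM in Ts1Cje and 150 ± 13.4 TPM in wild-type, and Ppp3ca followed with 56.0 ± 0.637 TPM in Ts1Cje and 55.1 ± 5.75 TPM in wild-type (SD, n = 3). Next came Rcan1, at 52.3 ± 6.42 TPM in Ts1Cje and 31.6 ± 6.88 TPM in wild-type, and Rcan3, at 31.5, 41.2 and 34.4 TPM in Ts1Cje libraries, against 29.0, 32.4 and 37.7 TPM in wild-type libraries. Rcan1 was above Rcan3 in 3 of 3 Ts1Cje libraries and in 1 of 3 wild-type libraries, and by mean TPM Rcan3 came before Rcan1 in wild-type libraries. Nfatc1, Nfatc2 and Nfatc3 followed at 22.3, 14.2 and 11.7 TPM in Ts1Cje and 22.8, 10.4 and 9.33 TPM in wild-type libraries. Dyrk1a and Ppp3cb followed, Dyrk1a at 8.79 ± 0.708 TPM in Ts1Cje and 5.63 ± 0.208 TPM in wild-type and Ppp3cb at 6.92 ± 1.38 TPM in Ts1Cje and 6.58 ± 0.567 TPM in wild-type. In wild-type libraries Ppp3cb was above Dyrk1a in 3 of 3. The neighbours in this order whose ranges overlapped were Ppp3ca and Rcan1, and Dyrk1a and Ppp3cb, in Ts1Cje libraries, and Rcan1 and Rcan3 in wild-type libraries. Rcan2 was lowest, at 0.0793 TPM in Ts1Cje and 0.126 TPM in wild-type libraries.

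Dyrk1a took a higher share of its own kinase family in Ts1Cje. It made up 32.5, 26.2 and 30.2% of the summed TPM of Dyrk1a, Dyrk1b, Dyrk2, Dyrk3 and Dyrk4 in Ts1Cje replicates 1 to 3, against 17.8, 18.8 and 19.9% in wild-type replicates 1 to 3. The shares did not overlap. Dyrk1b, the nearest paralog, had a log2 fold change of -0.40 ± 0.26 (SE) and Dyrk2, a kinase of protein quality control and p53, had -0.31 ± 0.33, while Dyrk3 had 0.66 ± 0.63; these 3 were chosen after their values were seen, and all overlapped on CPM between the genotypes. On TPM Dyrk1b was 5.92 to 6.28 in Ts1Cje and 6.39 to 9.08 in wild-type libraries, which did not overlap. Dyrk4 had 6 counts in all libraries together. Dyrk1a had 0.183 ± 0.0182 TPM per TPM of the NFAT genes in Ts1Cje and 0.133 ± 0.00589 in wild-type libraries (SD, n = 3).

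The wider pathway was read from 7 further lists, in which 0 genes passed after Benjamini-Hochberg adjustment in edgeR, in either direction; counts at an unadjusted p under 0.05 by edgeR are given with each list, against 2.99% of all tested genes higher and 2.8% lower. Groups apart are read on CPM, against 6.38% of all tested genes upward and 5.72% downward. Where a named gene apart on CPM overlapped on deposited TPM, this is said. Genes of calcium entry, which supply the signal that switches calcineurin on, had 9 of 11 tested values above 0 and 3 with every Ts1Cje library above every wild-type library, of which Itpr1 was also apart on TPM while Plcg2 and Orai1 overlapped. Their median log2 fold change was 0.23, against -0.01 over all tested genes, and 1 gene was higher and 0 lower at an unadjusted p under 0.05 by edgeR. Plcg2, the phospholipase that releases calcium from stores in myeloid cells, had 154, 195 and 133 CPM in Ts1Cje libraries, against 60.4, 90.1 and 122 CPM in wild-type libraries. Its groups were narrowly apart on CPM, and its log2 fold change was 0.82 ± 0.27 (SE). Orai1, the pore of store-operated calcium entry, had 0.30 ± 0.15 and Itpr1, a calcium channel of the endoplasmic reticulum, 0.45 ± 0.23.

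Calmodulin, further calcineurin subunits and other regulators had 5 values above 0 and 5 below of 10 tested, with a median of -0.01 and 0 genes at an unadjusted p under 0.05 by edgeR. Calm2, a calmodulin gene, had -0.34 ± 0.15 (SE) and Itch, a ubiquitin ligase, -0.27 ± 0.13, both with every Ts1Cje library below every wild-type library on CPM; on TPM Calm2 was apart as well and Itch overlapped. Ppp3cc had 0.44 ± 0.24 and overlapped on CPM, while on TPM it was 11.8 to 14.8 in Ts1Cje and 7.56 to 11.6 in wild-type libraries. Ppp3r2, the testis form of the regulatory subunit, had 0 counts in all libraries.

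NFAT kinases and export factors had 8 values above 0 and 5 below of 13 tested, with a median of 0.08 and 0 genes at an unadjusted p under 0.05 by edgeR. Xpo1, the exportin that carries NFAT out of the nucleus, had -0.28 ± 0.13 (SE) with Ts1Cje libraries below wild-type libraries. Csnk1a1, the casein kinase that holds NFAT in the cytoplasm, had -0.23 ± 0.14 and Prkaca, the catalytic subunit of protein kinase A, 0.49 ± 0.32, and both overlapped.

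Other NFAT proteins and partners had 1 value above 0 and 8 below of 9 tested, with a median of -0.23 and 2 genes lower at an unadjusted p under 0.05 by edgeR. Mef2c, which binds DNA beside NFAT in muscle and immune cells, had a log2 fold change of -0.91 ± 0.38 (SE). Gata6 had -1.72 ± 0.80, and both overlapped. Mef2c had 126, 170 and 111 CPM in Ts1Cje libraries, against 414, 209 and 140 CPM in wild-type replicates 1 to 3. Gata6 was barely detected, at means of 0.528 CPM in Ts1Cje and 1.74 CPM in wild-type libraries. Its level was 3.12 CPM in wild-type replicate 1, and 0.822 and 1.28 CPM in wild-type replicates 2 and 3.

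DYRK kinases other than Dyrk1a, partners and substrates of DYRK1A had 9 values above 0 and 10 below of 19 tested, with a median of -0.06 and 1 gene lower at an unadjusted p under 0.05 by edgeR. On CPM 1 gene was apart upward, also on TPM, and 2 were apart downward, 1 of them also on TPM. Rest, a repressor of neuronal genes that is known to respond to DYRK1A dose, had -0.44 ± 0.18 (SE) with groups narrowly apart downward. It had 37.2, 30.3 and 37.0 CPM in Ts1Cje libraries, against 54.4, 49.4 and 38.2 CPM in wild-type libraries. Cdkn1b, the cell cycle inhibitor p27 and a DYRK1A substrate, had -0.90 ± 0.46 and overlapped. Lin52, the DREAM subunit that DYRK1A phosphorylates, had 0.47 ± 0.24 with groups narrowly apart. It had 15.6 to 20.5 CPM in Ts1Cje and 9.39 to 15.1 CPM in wild-type libraries.

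Genes reported as NFAT targets in myeloid cells, which include genes that osteoclasts use, had 8 values above 0 and 3 below of 11 tested. Their median was 0.40 and their mean 0.08, and 2 genes were higher at an unadjusted p under 0.05 by edgeR. On CPM 2 genes were apart upward, 1 of them also on TPM, and 0 were apart downward. Itgb3, the integrin beta subunit of osteoclasts and platelets, had 274, 348 and 355 CPM in Ts1Cje libraries, against 122, 115 and 244 CPM in wild-type libraries. Its groups were apart, with a log2 fold change of 1.02 ± 0.30 (SE), an unadjusted p of 0.0103 and an adjusted p of 0.792 (edgeR, Benjamini-Hochberg). Ctsk, the collagen-cutting protease of osteoclasts, had 61.1, 17.6 and 168 CPM in Ts1Cje libraries, against 5.50, 6.73 and 27.7 CPM in wild-type libraries. Ts1Cje replicate 2 lay below wild-type replicate 3, and the log2 fold change was 2.63 ± 0.90. Nr4a1, a nuclear receptor induced by calcium, was at -1.74 ± 0.80 and overlapped. Its level was 26.9 CPM in wild-type replicate 1, and 4.52 and 3.08 CPM in wild-type replicates 2 and 3. Ts1Cje replicates 1 to 3 had 2.66, 2.87 and 4.81 CPM of it. Of this list 9 genes, among them Il12b, Csf2 and Calcr with 0 counts, were not tested.

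Immediate early genes, which signals including calcium raise within minutes, had 10 of 10 values below 0, with a median of -0.83 and 4 genes lower at an unadjusted p under 0.05 by edgeR. The list summed to 1463, 2168 and 2014 CPM in Ts1Cje replicates 1 to 3, against 4654, 4273 and 1779 CPM in wild-type replicates 1 to 3. Wild-type replicates 1 and 2 were high, while wild-type replicate 3 lay within the Ts1Cje range. Ier2 had 17.3, 20.9 and 23.6 CPM in Ts1Cje libraries, against 114, 113 and 24.9 CPM in wild-type libraries, narrowly apart. Egr1, a zinc finger factor, had a log2 fold change of -1.99 ± 0.61 (SE) and Dusp1, a phosphatase of MAP kinases, -0.80 ± 0.30, and both overlapped. Rcan1 was lowest in wild-type replicate 2 and highest among wild-type libraries in replicate 1, both of which were high in immediate early genes. The part of this difference in the values of Rcan1 and of the NFAT targets was not tested.

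**Figure D5:**
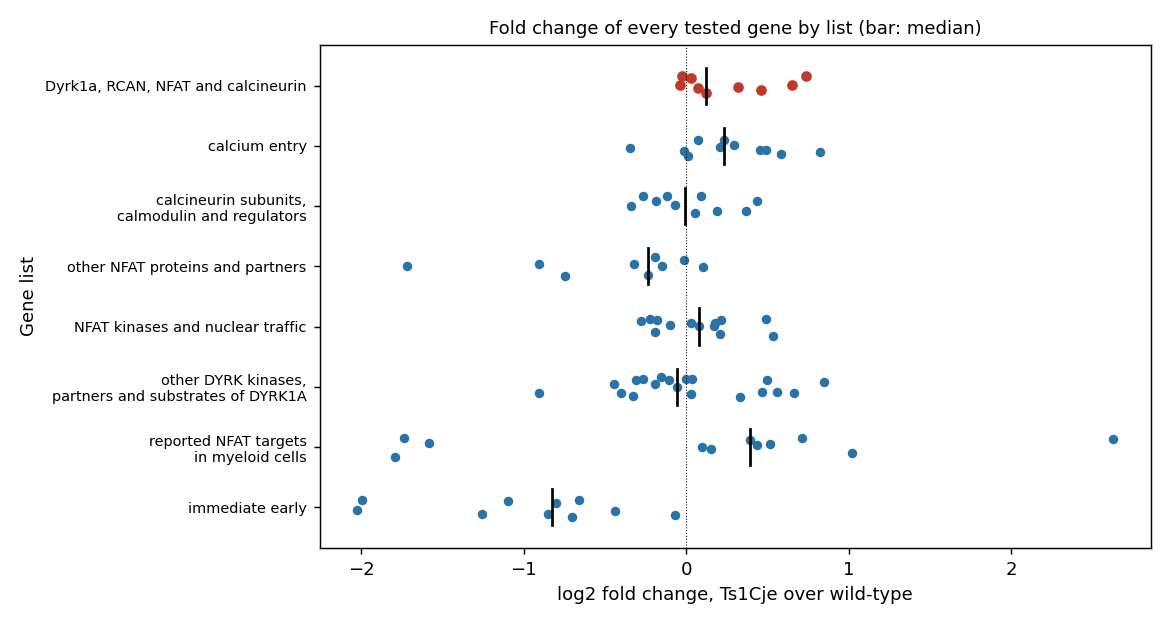
Log2 fold change of Ts1Cje over wild-type (x axis) for every tested gene (points) of the 9 tested members in red and of 7 further lists in blue, with list medians as black bars. The medians lie between -0.83 for immediate early genes and 0.40 for reported NFAT targets.

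The genes whose log2 CPM ran most like that of Dyrk1a over the 6 libraries, of 10796 compared, were Ripor1, Cbr1, Paip1, Ppm1h and Rab40c, with Pearson r of 0.98 to 0.99. Of these, Cbr1 lies in the extra segment and the other 4 do not. Those most like Rcan1 were Tpgs1, Clec4n, Mon1a, Fam83h and Ciao1, with r of 0.97 to 0.99, and none of the 5 lies in the segment. The 6 libraries include the genotype difference, so that any gene higher in Ts1Cje gains likeness with both, and the values are descriptions.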

How the data were processed

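RNA of 6 libraries, 3 Ts1Cje and 3 wild-type, was sequenced from SMART-seq libraries of total RNA, per the labels. Tools named in the submitters' processing notes are Trimmomatic 0.38, FastQC 0.11.7, HISAT2 2.1.0 and featureCounts 1.6.3, with the build mm10. The deposited files are whole-number counts and TPM, each with a row per gene and a column per library. The deposited TPM of 9151 well-counted genes equalled counts divided by a length and a library factor within 1%.

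Genotypes were compared on counts with edgeR 4.0.16 in R 4.3.3 (TMM factors, quasi-likelihood test, genes kept by filterByExpr at min.count 10 and min.total.count 15), with p adjusted by Benjamini-Hochberg over 13821 tested genes and a threshold of 0.05. SE is the log2 fold change divided by the root of F, and 95% intervals use the t distribution with the degrees of freedom of the fit. DESeq2 1.42.0, limma 3.58.1 and the other alternatives are reported in the closing section. The test was also run on simulated data. The exons used for overlaps are from GENCODE M21. Counts come from PCR copies without molecular identifiers, and precision was read from the spread between libraries.

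The members and lists were chosen with earlier results of these data known. Named genes are the members, the 3 genes of smallest p in each list, the 3 nearest tested genes on each side of Dyrk1a and Rcan1, and the 5 genes most like each in log2 CPM (prior count 2; genes with a mean above 1); others are said to be chosen after their values were seen. A result of 1 gene that this rule names is not reported here.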

Additional observations from a re-analysis of the deposited data

How the results depend on the processing

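Under 17 alternatives (RLE, upper-quartile and chromosome 16-free TMM factors, no filter, a stricter filter, DESeq2, limma-voom, limma on TPM in log2 after adding 1 or 0.1, or for genes of mean TPM 1 or more, the replicate block and each library left out) 0 members passed an adjusted p of 0.05, as in the values reported. Dyrk1a kept a log2 fold change of 0.56 to 0.74, Rcan1 0.57 to 0.92, Nfatc2 0.40 to 0.54 and Nfatc3 0.29 to 0.36, all positive, and Rcan3 0.04 to 0.23. The median of the members outside the segment was 0.08, and 0.04 to 0.10 over the alternatives. The number of genes called over all was 1, and 3 with no filter, 56 with DESeq2, 0 with the replicate block and 1 to 6 with each library left out, the 6 without wild-type replicate 3. With the block, 634 genes had an edgeR p under 0.05 before adjustment, against 800 in the main fit and 2347 without wild-type replicate 3.

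Signs turned for genes whose values lay near 0. Ppp3ca had -0.0041 with upper-quartile factors, and -0.064 to 0.099 with each library left out. Over the same libraries left out, Nfatc1 ran from -0.056 to 0.038, Ppp3cb from -0.063 to 0.15 and Ppp3r1 from -0.14 to 0.049. The cause was not tested.

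Lot numbers are shared by the genotypes. Deviations of same-numbered libraries from their group means correlated at -0.18, -0.05 and -0.06 over 13821 genes, and no library correlated best with its own number. With 3 libraries a group this cannot decide whether the numbers pair the samples, which the labels do not say. With the replicate block Dyrk1a had 0.65, Rcan1 0.75, Nfatc2 0.46 and Nfatc3 0.32, and no member's call changed. The counts of genes with groups apart, for members, neighbours and lists, and their alternatives were chosen after seeing the data. With 3 libraries a group, an exact two-sided permutation test of a single value cannot go below 0.1.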
